A study of Mus musculus with 70 samples.

Results

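Sterol metabolism was followed through serial passage of a mouse kidney cancer line by 8 genes, of the 21388 gene symbols that the array probes could be given. Their probes were found by name and RefSeq transcript, and the genes were chosen with earlier results of these data known. They were the synthesis enzymes Hmgcs1, Idi1, Fdft1, Sqle and Lss, the feedback regulator Insig1, and the exporters Abca1 and Abcg1. None of the 8 is an uptake gene, so uptake is described from a separate list. The material was RENCA, a renal adenocarcinoma line of BALB/c mice with wild-type Vhl, made to express GFP from a lentiviral vector. Parental cells (P0) were injected either under the capsule of the left kidney or into the tail vein of wild-type female BALB/c mice aged 6 weeks. Cells recovered from kidney tumors (KPT), from lung metastases of kidney tumors (K-LM) or from lung metastases after tail vein injection (T-LM) were cultured in RPMI with serum and injected again, for 6 rounds (P1 to P6).

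There were 65 RNA samples: 2 of P0, then for P1 to P6 in turn 5, 2, 2, 3, 5 and 5 of KPT, 5, 2, 3, 4, 6 and 4 of T-LM, and 1, 1, 5, 3, 4 and 3 of K-LM. Multiple mice were used per round, but nothing ties a numbered sample to a mouse or culture, so the p-values measure the spread between these samples, which may be partly technical. All samples derive from 1 parental line and the rounds follow each other, so the P6 samples of a route share their history.

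Cholesterol is built from acetyl-CoA through the mevalonate pathway, squalene and lanosterol. When sterols in the endoplasmic reticulum run low, SCAP escorts the SREBP transcription factors to the Golgi, where they are released to switch on the synthesis enzymes. INSIG proteins hold SCAP back when sterols are plentiful, and Insig1 is itself an SREBP target. Surplus cholesterol is turned into oxysterols, which activate the LXR receptors, and these raise the exporters ABCA1 and ABCG1.

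One promoter was printed for each role (an enzyme, the brake and an exporter), from RefSeq on GRCm38.p6, with 250 bases before and 50 after the start, so that the motifs tied to these factors can be read. Capitals mark matches, on either strand, to TCACNCCAC (a sterol regulatory element), CCAAT or GGGCGG. No base lay in a pair of matches.
Hmgcs1, chr13:119690101-119690400, plus strand: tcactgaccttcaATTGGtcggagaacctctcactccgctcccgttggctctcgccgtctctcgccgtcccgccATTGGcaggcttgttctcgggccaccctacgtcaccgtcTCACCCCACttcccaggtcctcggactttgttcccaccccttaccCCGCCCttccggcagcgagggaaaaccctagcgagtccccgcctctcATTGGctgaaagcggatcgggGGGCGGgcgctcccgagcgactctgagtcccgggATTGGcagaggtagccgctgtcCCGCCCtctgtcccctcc
Insig1, chr5:28071162-28071461, plus strand: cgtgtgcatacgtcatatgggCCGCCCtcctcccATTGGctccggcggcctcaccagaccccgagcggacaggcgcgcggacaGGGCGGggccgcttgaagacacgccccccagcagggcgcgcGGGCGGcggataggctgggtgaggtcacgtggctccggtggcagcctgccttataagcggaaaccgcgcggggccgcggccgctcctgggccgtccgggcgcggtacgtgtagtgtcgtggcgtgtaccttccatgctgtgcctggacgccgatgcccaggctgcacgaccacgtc
Abca1, chr4:53159846-53160145, minus strand: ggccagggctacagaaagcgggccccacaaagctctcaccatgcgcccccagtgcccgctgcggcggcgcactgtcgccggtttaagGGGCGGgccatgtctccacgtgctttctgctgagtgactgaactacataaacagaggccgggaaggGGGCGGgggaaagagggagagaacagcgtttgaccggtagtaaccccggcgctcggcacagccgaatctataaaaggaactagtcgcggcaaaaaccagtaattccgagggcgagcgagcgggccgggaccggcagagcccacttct
Of the 3 windows, the sterol regulatory element letters occurred only in that of Hmgcs1, from -137 to -129 on the plus strand, counted from the start. Hmgcs1 also held 4 CCAAT and 3 GGGCGG matches. Insig1 held 1 CCAAT and 3 GGGCGG matches, and Abca1 held 2 GGGCGG matches and no CCAAT. Among the 5 members with an entry, Idi1 held 2 CCAAT and 1 GGGCGG matches, and Lss held 1 and 2. DR4 was read as 2 copies of AGGTCA in 1 orientation spaced by 4 bases, with up to 1 mismatch per copy. None of the 5 held a match to that rule, which leaves out weaker copies. The Abca1 window holds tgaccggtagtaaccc, on the other strand GGGTTA and CGGTCA spaced by 4 bases. Its first copy has more mismatches than the rule allows, so the rule does not show that Abca1 lacks a DR4 element. Of 32851 promoters of the same length, 1.24% held TCACNCCAC, 37.4% CCAAT, 35.7% GGGCGG and 1.75% DR4. Sqle, Fdft1 and Abcg1 had no entry.

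Each sample was hybridized to a one-color array, and levels are log2 signals relative to the 75th percentile of the array, taken over the 11289 probes well above background on all 70 arrays. These 70 arrays hold 5 repeats, of each P0 sample and of replicates 1, 2 and 4 of KPT P6, which lie with all 3 K-LM P6 samples on 1 slide of 8 arrays read with newer software, here the late slide. The 5 synthesis genes were well above background on 70 of 70 arrays, Insig1 on 61, and Abca1 and Abcg1 on 30 each. A reading not well above background gives only an upper limit, and that limit moved with the brightness of the array (75th percentile 11.7 to 14.4 on the log2 scale). A second probe of Hmgcs1 was well above background on 0 arrays and a second one of Fdft1 on 1, so the brighter probe was used. Of 6 renal and epithelial markers, Pax8, Krt8 and Krt18 were well above background on 70 arrays, Cdh1 on 7, Epcam on 5 and Pax2 on 0.

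Among the enzymes, Hmgcs1, Idi1, Fdft1 and Sqle had their highest group mean in P0, and the lowest mean of all 5 enzymes was in K-LM P5. Hmgcs1, which makes HMG-CoA at the start of the pathway, averaged 0.10 ± 0.13 (SD, n = 2) in P0 and -2.37 ± 0.14 (n = 4) in K-LM P5. Idi1, the isomerase that makes the second isoprenoid building block, averaged -0.33 ± 0.21 (n = 2) and -2.46 ± 0.07 (n = 4) in the same groups. For these genes P0 lay above the group next in order, KPT P2, without overlap.
Fdft1, squalene synthase, averaged -1.77 ± 0.47 (n = 2) in P0 and -3.01 ± 0.14 (n = 4) in K-LM P5. Sqle, which oxidizes squalene in a rate-limiting step, averaged 1.31 ± 0.29 (n = 2) and -0.25 ± 0.21 (n = 4). Lss, which closes the ring to lanosterol, was highest in KPT P5 at -3.36 ± 0.27 (n = 5), next to P0 at -3.48 ± 0.49 (n = 2), and averaged -4.62 ± 0.23 (n = 4) in K-LM P5. For Fdft1, Sqle and Lss, each of the 17 groups of 2 or more samples overlapped its neighbors in the order of means, so that order is coarse.

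**Figure D1:**
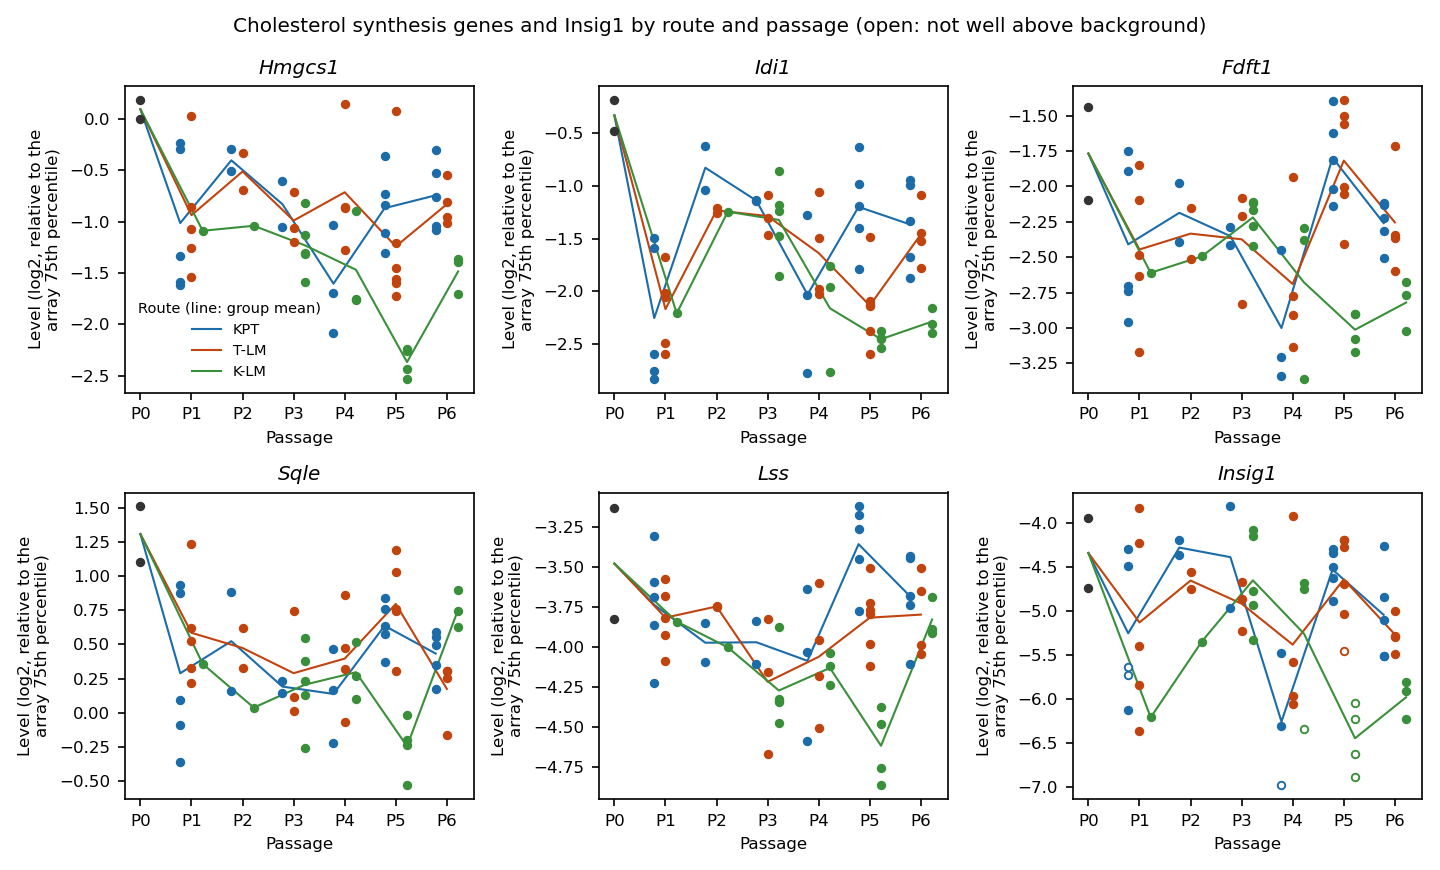
Levels of the synthesis genes and Insig1 (y axis, log2 relative to the 75th percentile of the array) by passage (x axis, P0 to P6); each point is an RNA sample, colored by route. The K-LM P5 samples sit at the bottom of the Hmgcs1 panel, between -2.53 and -2.24, and among the low samples of the other panels, where single samples of other groups lie as low or lower.

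Insig1, the sterol-sensing brake on SREBP, followed a like order, with the highest means in KPT P2 (-4.28 ± 0.13, n = 2) and P0 (-4.34 ± 0.56, n = 2) and the lowest in K-LM P5 (-6.45 ± 0.38, n = 4). In all 4 K-LM P5 samples Insig1 was not well above background.

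The exporters had other orders of means, and different ones from each other. Abca1, which loads cholesterol and phospholipid onto apolipoprotein A-I, averaged -4.69 ± 0.16 (n = 2) in P0 and -4.67 ± 0.66 (n = 5) in KPT P1, and was lowest in K-LM P3 (-8.24 ± 0.24, n = 5) and KPT P3 (-8.15 ± 0.13, n = 2), where no sample was well above background. Abcg1, which passes cholesterol to HDL, was lowest in P0 (-8.20 ± 0.24, n = 2), not well above background there, and highest in K-LM P6 (-5.02 ± 0.40, n = 3). No group of either gene was apart from its neighbor in the order. Within KPT P1, Abcg1 read -6.51 and -6.83 in replicates 1 and 2 and -4.10, -4.33 and -4.07 in replicates 3 to 5. Within KPT P5 it read -3.59 and -3.65 in replicates 1 and 2 and -6.45, -5.99 and -7.14 in replicates 3 to 5.

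Markers of other cell types differed across both splits, in part. Of 9 macrophage markers (Cd68, Csf1r and Itgam among them, which were well above background on all 70 arrays), 7, 7 and 9 were well above background in KPT P1 replicates 3 to 5, against 5 and 5 in replicates 1 and 2. In KPT P5 it was 9 and 9 in replicates 1 and 2, against 6, 6 and 5. The summed level of 5 fibroblast markers ran the same way, 0.99, 3.48 and 2.81 against -1.45 and -1.36 in KPT P1, and 4.73 and 2.76 against -0.82, -1.32 and -0.84 in KPT P5. The summed macrophage level did not split in KPT P1, at 2.36, 2.44 and 2.25 against 2.23 and 2.65. The part of these markers in the Abcg1 values was not tested. The methods of the study describe cultured cells, while the extraction step in the labels names a tissue homogenizer, so which material was lysed is not settled. In bulk RNA of this kind, fewer cells of a type and less RNA per cell cannot be told apart.

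**Figure D2:**
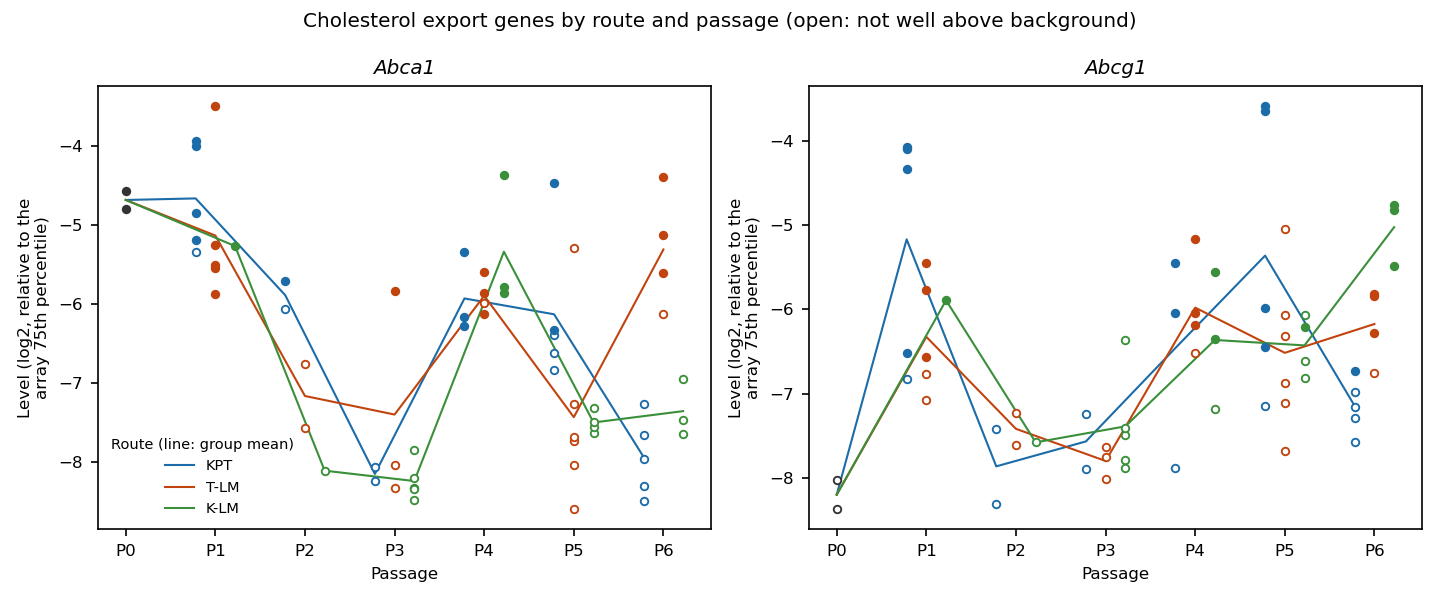
Levels of Abca1 and Abcg1 (y axis, log2 relative to the 75th percentile of the array) by passage (x axis), each point an RNA sample colored by route. Hollow points were not well above background. Abca1 in KPT P6 lies between -8.49 and -7.27, with no sample well above background, and Abcg1 in K-LM P6 lies between -5.48 and -4.76.

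The first comparison asked how the last passage of each route differed from the parental cells. In K-LM, Hmgcs1, Idi1, Fdft1 and Abca1 fell and Abcg1 rose. In KPT only Abca1 fell, and in T-LM only Sqle. At an adjusted p of 0.01 or less (limma), 4 of 8 members were lower and 1 higher in K-LM (1.16% and 3.66% of all probes tested), 1 was lower in KPT (0.472% of probes) and 1 lower in T-LM (1.41% of probes). All 8 members passed the filter of at least 2 arrays well above background in each fit. The 3 comparisons share the P0 samples.

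Hmgcs1 read 0.00 and 0.19 in P0 and -1.39, -1.36 and -1.70 in K-LM P6, a change of -1.54 ± 0.26 (SE, limma adjusted p = 0.000369). Idi1 read -0.48 and -0.18 in P0 and -2.16, -2.40 and -2.31 in K-LM P6, a change of -1.90 ± 0.31 (limma adjusted p = 0.000261). Both groups of both genes were apart, P0 always higher. Fdft1 read -2.10 and -1.44 in P0 and -2.67, -2.77 and -3.02 in K-LM P6, a change of -1.07 ± 0.26 (limma adjusted p = 0.0086). That call was lost without any 1 of the 5 samples (adjusted p from 0.0117 to 0.223). Insig1 read -4.74 and -3.94 in P0 and -5.91, -5.80 and -6.23 in K-LM P6, a change of -1.69 ± 0.44 that missed the threshold (limma adjusted p = 0.0157). Sqle changed by -0.68 ± 0.23 (adjusted p = 0.0751) and Lss by -0.78 ± 0.26 (adjusted p = 0.07), neither past it. With the P0 repeat arrays averaged in, the groups did not overlap for any of the 8 members. On the first arrays alone Lss did overlap, at -3.83 in P0 replicate 1 and -3.69 in K-LM P6 replicate 2. The share of all probes without overlap was not taken, so the count of members apart has no background to be read against.

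In KPT and T-LM the enzymes lay lower in P6 in most cases but seldom passed. Sqle read 1.51 and 1.1 in P0 against 0.30, -0.16, 0.25 and 0.30 in T-LM P6, a change of -1.13 ± 0.28 (limma adjusted p = 0.00885). The groups were apart, yet the call was lost without any 1 of the 6 samples (adjusted p from 0.0139 to 0.163). In KPT, Sqle changed by -0.87 ± 0.22 (adjusted p = 0.0211), with samples between 0.18 and 0.59 at P6. Idi1 changed by -1.13 ± 0.29 in T-LM (adjusted p = 0.0127) and by -1.03 ± 0.36 in KPT (adjusted p = 0.108).

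Abca1 read -4.57 and -4.80 in P0, and -4.27 and -4.25 on their repeat arrays. In KPT P6 it read -8.30, -8.49, -7.97, -7.27 and -7.66, none well above background, at least 3.90-fold lower than P0 (limma change -3.25 ± 0.49, adjusted p = 0.000296). The call was lost without P0 replicate 1 (adjusted p = 0.0124) and with each signal raised to the lowest passing one (change -1.96 ± 0.42, adjusted p = 0.0107). In K-LM P6 it read -7.65, -7.47 and -6.95, again none well above background, at least 5.78-fold lower (change -2.82 ± 0.43, adjusted p = 9.21e-05). In T-LM P6 it read -5.13, -4.39, -5.61 and -6.12, which overlapped P0, with a change of -0.63 ± 0.72 (adjusted p = 0.703). These bounds set the P0 mean against the higher of each array's lowest passing signal and the probe's own reading.

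Abcg1 read -8.37 and -8.03 in P0, not well above background, and -4.76, -4.83 and -5.48 in K-LM P6, all well above it. The rise was at least 3.02-fold (limma change 2.98 ± 0.43, adjusted p = 4.56e-05). In K-LM P6 the macrophage markers Ptprc, Adgre1, Tyrobp, Fcgr3 and Mrc1 were not well above background in any sample, the other 4 of the 9 were well above it in each, and the summed macrophage level was 1.36 to 1.98 against 1.19 to 1.52 in P0. Of the 5 fibroblast markers, 3 to 4 were well above background in K-LM P6, 0 on the first P0 arrays, and 3 and 1 on the P0 repeats of the same slide. Their summed level was -0.06 to 1.59 in K-LM P6 and -5.57 to -5.06 on the P0 arrays, and the lung epithelium sum was -3.89 to -3.27 against -5.83 to -5.18. Their part in the rise was not tested. In T-LM P6 Abcg1 read -5.81, -6.28, -5.84 and -6.76, a change of 2.02 ± 0.51 (adjusted p = 0.0114), and in KPT P6 -6.98, -7.29, -6.72, -7.58 and -7.15, a change of 1.05 ± 0.81 (adjusted p = 0.56). Both groups lay above P0 without overlap, and neither change passed the threshold.

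Since K-LM P6 lies on the late slide only, the K-LM fit held the repeat arrays and a term for that slide, and the change was also read on that slide alone against the P0 repeats. There Hmgcs1 changed by -1.48 ± 0.19, Idi1 by -1.75 ± 0.21, Abca1 by -3.10 ± 0.27 and Abcg1 by 3.06 ± 0.24 (limma adjusted p = 0.000775, 0.000621, 8.8e-05 and 3.88e-05). Insig1 passed on that slide alone, at -1.65 ± 0.25 (adjusted p = 0.00196). With all routes and slides in 1 model and slide as a fixed block, 4 of the 24 changes passed, those of Abca1 in KPT and of Idi1, Abca1 and Abcg1 in K-LM.

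**Figure D3:**
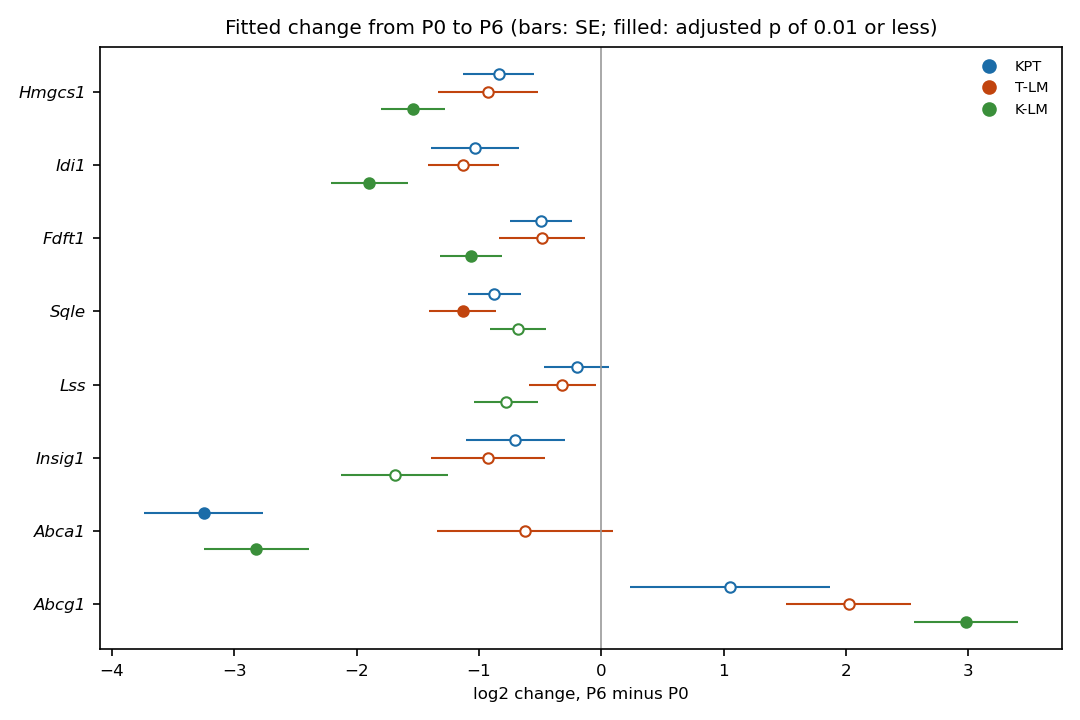
Fitted log2 change from P0 to P6 (x axis, P6 minus P0) of each gene (y axis) in the 3 routes; bars are SE and filled points have an adjusted p of 0.01 or less. Synthesis genes and Insig1 lie left of 0 in every route, and Abcg1 lies right of 0, at 2.98 in K-LM.

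Other genes of the pathway were read from fixed lists. Of 15 further synthesis genes, 2 fell in K-LM, Cyp51 by 1.72 ± 0.26 on the log2 scale (limma adjusted p = 9.14e-05) and Msmo1 by 1.65 ± 0.35 (adjusted p = 0.0035), both of which strip methyl groups from lanosterol. The list's median change was -0.44 there, against 0.00 over all probes. In KPT 0 of 15 passed. In T-LM 1 of the 15 rose, and Fdps, farnesyl diphosphate synthase, changed by -1.18 ± 0.24 (adjusted p = 0.00249). Of 5 further efflux genes listed, 1 of the 2 tested in T-LM rose, and none passed in KPT or K-LM. The share of all probes that rose in T-LM was not taken. Of 8 regulators, only Nr1h3 (LXR alpha) in KPT passed, at -0.996 ± 0.215 (adjusted p = 0.00751). Of 10 uptake and trafficking genes, only Npc2, a lysosomal cholesterol carrier, in T-LM passed, at 1.04 ± 0.18 (adjusted p = 0.000527). Of 9 fatty acid genes that SREBP also serves, Scd2 (-1.60 ± 0.34, adjusted p = 0.00309) and Acss2 (-1.57 ± 0.24, adjusted p = 0.000148) fell in T-LM and none passed in KPT or K-LM.

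From P3 to P6, the early-to-late contrast of the study, 1 of 8 members rose in K-LM, where 2.35% of probes did. None passed in KPT (0.629% of probes were higher and 0.0858% lower) or in T-LM (5.62% and 1.38%). The member was Abcg1. It read -7.78, -6.37, -7.49, -7.88 and -7.41 in K-LM P3, none well above background, so the rise to P6 was at least 2.42-fold (limma change 2.09 ± 0.39, adjusted p = 0.00213). No P3 sample reached the P6 range. The call was lost without K-LM P6 replicate 1 or 2 (adjusted p from 0.0151 to 0.0161). The index of long over ribosomal protein mRNAs (the mean level of 13 long mRNAs minus that of 83 ribosomal protein mRNAs) moved with it, at -9.12 to -7.20 in K-LM P3 and -6.58 to -6.46 in P6, and with the index as a covariate the change was 1.89 ± 0.48, no longer called (adjusted p = 0.0558). The summed fibroblast level also lay higher at P6 (-0.06 to 1.59 against -2.23 to -0.93), as did that of lung epithelium (-3.89 to -3.27 against -5.26 to -4.54), and their part was not tested. The nearest misses were Idi1 (-1.05 ± 0.29, adjusted p = 0.0205) and Insig1 (-1.42 ± 0.40, adjusted p = 0.0236) in K-LM, and Abcg1 (1.62 ± 0.45, adjusted p = 0.0204) and Abca1 (2.09 ± 0.63, adjusted p = 0.0329) in T-LM. In KPT, adjusted p-values ran from 0.356 upward. Counted at an unadjusted p under 0.05, K-LM had 5 of 8 members, the called Abcg1 among them, T-LM had 2 and KPT had 0. The share of all probes at that level was not taken, here or for the later counts, so they have no background to be read against.
Beside them, Npc1, which exports cholesterol from lysosomes, rose by 1.62 ± 0.35 in K-LM (limma adjusted p = 0.00539) and Soat1, which esterifies it, by 0.86 ± 0.20 (adjusted p = 0.00927). In T-LM Acss2 fell by 1.03 ± 0.21 (adjusted p = 0.00274). Of the 15 further synthesis genes none passed in K-LM or KPT and 1 rose in T-LM. Of the 2 further efflux genes tested in T-LM, 1 rose.

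After a single round in the mouse, Idi1 was already lower by both routes that could be tested. It read -1.49, -1.59, -2.83, -2.76 and -2.60 in KPT P1, a change from P0 of -1.93 ± 0.40 (limma adjusted p = 0.00452). In T-LM P1 it read -2.06, -2.02, -2.60, -2.49 and -1.68, a change of -1.84 ± 0.29 (adjusted p = 0.000428). No P1 sample reached P0 in either route. Idi1 was the only member of 8 called in KPT and in T-LM, where 1.13% and 0.431% of probes were called lower. The KPT call was lost without either P0 sample or KPT P1 replicate 3, 4 or 5 (adjusted p from 0.0101 to 0.0804), and the T-LM call without P0 replicate 2 (adjusted p = 0.0339). The index of long over ribosomal protein mRNAs was -6.33 to -5.37 in KPT P1 and -6.53 to -4.74 in T-LM P1, above -6.91 to -6.66 on the first P0 arrays, but the P0 repeats read -6.18 and -6.22, within both ranges. With that index as a covariate both calls held. Markers of other cell types lay higher in P1 without overlap, the summed fibroblast level at -1.45 to 3.48 in KPT and -1.13 to 4.05 in T-LM against -5.11 to -5.09 in P0, and the macrophage sum at 2.23 to 2.65 and 1.90 to 2.58 against 1.19 to 1.52. Their part in these values was not tested.
Abcg1 read higher in P1 than in P0 without overlap, by 3.03 ± 0.90 in KPT (limma adjusted p = 0.0322) and 1.87 ± 0.51 in T-LM (adjusted p = 0.025). It was well above background in 4 of 5 KPT P1 and 3 of 5 T-LM P1 samples and in neither P0 sample. The rise was thus at least 1.73-fold in KPT, and no least fold could be given in T-LM. Hmgcs1 in KPT P1 split as Abcg1 did, but the other way, at -0.29 and -0.23 in replicates 1 and 2 and -1.62, -1.34 and -1.59 in replicates 3 to 5. K-LM P1 is 1 sample, with Idi1 at -2.21 and Abcg1 at -5.89, and was not tested. In KPT P1, Nr1h3 changed by -0.97 ± 0.20 from P0 (adjusted p = 0.00371) and Npc2 by 0.80 ± 0.17 (adjusted p = 0.00483), and 0 of 15 further synthesis genes passed in either route.

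From P1 to P6, Abca1 fell in KPT and was the only member called there (1 of 8, with 6.28% of probes lower). It read -4.86, -5.19, -5.34, -4.01 and -3.94 in P1, 4 of 5 well above background, and fell at least 3.96-fold (limma change -3.27 ± 0.38, adjusted p = 7.05e-06). In T-LM 0 of 8 passed, with 3.83% of probes higher and 5.45% lower, and 1 did at an unadjusted p under 0.05. There Abca1 read -5.51, -5.54, -5.26, -5.87 and -3.50 in P1 and changed by -0.18 ± 0.57 (adjusted p = 0.862). The difference between the routes in this change was itself called, at 3.21 ± 0.66 (limma adjusted p = 0.00144), for 1 of 8 members and 0.915% of probes in that direction. It missed the threshold with each signal raised to the lowest passing one (1.94) and with slide as a fixed block (2.74). The mean index of long over ribosomal protein mRNAs went from -5.80 to -6.55 in KPT and from -5.64 to -6.84 in T-LM. With it as a covariate both Abca1 calls held. In the same order, the mean fibroblast sum went from 0.89 to -0.35 and from 2.53 to 1.89. The lung epithelium sum went from -5.25 to -4.72 and from -5.26 to -1.96. The macrophage sum went from 2.39 to 2.12 and from 2.21 to 1.68. The part of these markers was not tested. Idi1 lay higher at P6 than at P1 by 0.89 ± 0.31 in KPT (adjusted p = 0.0424) and 0.71 ± 0.23 in T-LM (adjusted p = 0.0358), neither past the threshold. Among the list genes, Acss2 changed from P1 to P6 by -1.02 ± 0.23 in KPT (limma adjusted p = 0.00379) and -1.52 ± 0.23 in T-LM (adjusted p = 8.14e-05). Soat1 changed by -0.997 ± 0.251 (adjusted p = 0.00781) and Dhcr7 by -0.912 ± 0.238 (adjusted p = 0.00989) in T-LM. The P3 to P6 changes differed between routes for 0 of 8 members (with 0.179% of probes higher and 0.0114% lower for T-LM minus KPT, 0.191% and 0.114% for K-LM minus KPT, and 0.286% and 0.515% for K-LM minus T-LM), the lowest adjusted p being 0.412 (limma) and 1, 0 and 0 members having an unadjusted p under 0.05.

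At P5 all 5 enzymes had their lowest mean in K-LM. Against KPT, all 5 enzymes and Insig1 were lower in K-LM and neither exporter passed, 6 of 8 members with 4.51% of probes. Against T-LM, Fdft1, Sqle, Lss and Insig1 were lower, 4 of 8 with 1.67%. Between T-LM and KPT, Idi1 alone was lower in T-LM, 1 of 8 with 3.17%.

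Hmgcs1 read -2.44, -2.53, -2.24 and -2.26 in K-LM P5 and -0.36, -1.30, -0.84, -1.11 and -0.73 in KPT P5, a difference of -1.50 ± 0.31 (limma adjusted p = 0.00431). Idi1 read -2.54, -2.45, -2.45 and -2.38 against -1.40, -1.79, -1.19, -0.98 and -0.62, a difference of -1.26 ± 0.23 (adjusted p = 0.00212). In both genes every K-LM sample lay below every KPT sample, and the K-LM values were the tighter. Idi1 in T-LM P5 ran from -2.59 through a median of -2.14 to -1.48, which overlapped KPT, with a difference of -0.94 ± 0.21 (adjusted p = 0.00859). That call was lost without any 1 of 8 of the 11 samples, KPT replicates 3 to 5 and T-LM replicates 2 to 6 (adjusted p from 0.014 to 0.0285).

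Fdft1 read -2.90, -3.08, -2.90 and -3.17 in K-LM P5 and -1.40, -2.14, -2.02, -1.81 and -1.62 in KPT P5, a difference of -1.21 ± 0.21 (limma adjusted p = 0.00147), and -1.19 ± 0.20 against T-LM (adjusted p = 0.00286). Sqle read -0.02, -0.53, -0.24 and -0.20 against 0.57, 0.37, 0.63, 0.76 and 0.84, a difference of -0.88 ± 0.17 (adjusted p = 0.00342), and -1.04 ± 0.17 against T-LM (adjusted p = 0.00219). Lss read -4.37, -4.75, -4.48 and -4.86 against -3.45, -3.78, -3.26, -3.12 and -3.18, a difference of -1.26 ± 0.17 (adjusted p = 0.000269), and -0.80 ± 0.16 against T-LM (adjusted p = 0.00699). None of these 3 genes overlapped between K-LM and either other route.
Insig1 read -6.89, -6.05, -6.63 and -6.23 in K-LM P5, none well above background, and -4.89, -4.30, -4.63, -4.34 and -4.49 in KPT P5, all well above it. It was at least 3.37-fold lower than in KPT (limma difference -1.92 ± 0.26, adjusted p = 0.000324) and at least 3.12-fold lower than in T-LM (-1.81 ± 0.25, adjusted p = 0.00109). The calls on Insig1 held in every leave-one-out and every alternative that gave a value. Without 1 sample, Hmgcs1 was lost against KPT without any K-LM replicate or KPT replicate 3 or 5, Sqle against KPT without K-LM replicate 3, 5 or 6 or KPT replicate 4, Fdft1 against T-LM without K-LM replicate 3 or 6, and Lss against T-LM without any K-LM replicate or T-LM replicates 3 to 6 (adjusted p from 0.0103 to 0.0338).

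The balance of the RNA moved with this result. The index of long over ribosomal protein mRNAs was -8.96 to -8.08 in K-LM P5, below -8.01 to -6.84 in KPT P5 and overlapping -8.32 to -7.14 in T-LM P5. With the index as a covariate 2 of the 24 differences at P5 passed, both of Insig1, at -2.26 ± 0.35 against KPT (limma adjusted p = 0.00333) and -2.08 ± 0.31 against T-LM (adjusted p = 0.0073). Against KPT, the sizes of the others under the covariate were -1.85 for Hmgcs1, -1.41 for Idi1, -1.33 for Fdft1, -1.05 for Lss and -0.75 for Sqle. Against KPT, whose index did not overlap, the part of RNA balance cannot be told apart from that of the route.

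Some sums of marker genes moved with it too. The summed macrophage level was 1.26 to 1.84 in K-LM P5, below 2.09 to 3.11 in KPT P5 and overlapping 1.67 to 2.31 in T-LM P5. The sum of the renal and epithelial markers was 3.78 to 3.84 in K-LM P5, below 4.35 to 4.64 in KPT P5 and 3.85 to 4.53 in T-LM P5. The counts of macrophage markers well above background overlapped, at 5 to 7 of 9 in K-LM P5, 5 to 9 in KPT P5 and 3 to 7 in T-LM P5. So did the fibroblast sums, at 0.81 to 2.06, -1.32 to 4.73 and 0.61 to 5.44 in the same order. The part of these markers in the differences was not tested.

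**Figure D4:**
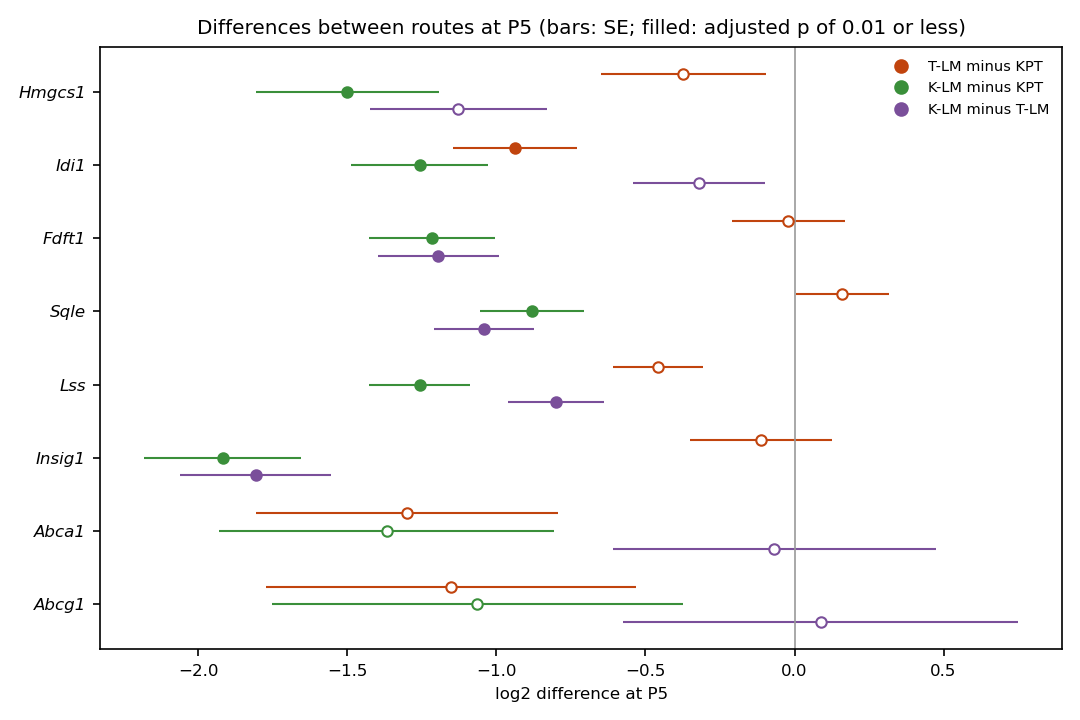
Fitted log2 difference between routes at P5 (x axis) of each gene (y axis), 1 color for each pair of routes; bars are SE and filled points have an adjusted p of 0.01 or less. K-LM minus KPT lies left of 0 for all 8 genes, farthest for Insig1 at -1.92, and the exporters have wide bars and open points.

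Related genes were lower in K-LM P5 too. Of 15 further synthesis genes, Mvd, Fdps, Cyp51, Msmo1 and Dhcr7 (5 of 15) were lower than in KPT and 3 lower than in T-LM, with list medians of -0.66 and -0.48 against -0.06 and 0.01 over all probes. Of 9 fatty acid genes 7 were lower than in KPT (list median -1.44) and 5 lower than in T-LM (list median -0.84). Scd2, a stearoyl-CoA desaturase, differed by -2.83 ± 0.24 from KPT (limma adjusted p = 6.12e-06) and -2.27 ± 0.23 from T-LM (adjusted p = 0.000163), and Fasn, fatty acid synthase, by -2.14 ± 0.22 (adjusted p = 3.54e-05) and -1.70 ± 0.22 (adjusted p = 0.00062). Of 10 uptake and trafficking genes 4 were lower and 1 higher than in KPT, the latter being Npc2 at 1.14 ± 0.13 (adjusted p = 9.16e-05). None of the 7 regulators tested passed. In T-LM against KPT, Dhcr7 differed by -0.78 ± 0.16 (adjusted p = 0.00501) and Npc2 by 0.87 ± 0.12 (adjusted p = 0.000647).

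At P6 each pair of routes differed in 1 or both exporters. Abca1 and Abcg1 were higher in T-LM than in KPT (2 of 8 members, with 6.98% of probes). In K-LM Abcg1 was higher and Hmgcs1, Idi1 and Insig1 lower than in KPT (1 of 8 with 6.22% of probes higher, and 3 of 8 with 9.76% lower), and Abca1 was lower than in T-LM (1 of 8, with 7.72%).
Abca1 was at least 2.88-fold higher in T-LM P6 than in KPT P6 (limma difference 2.75 ± 0.32, adjusted p = 6.84e-06), 3 of 4 samples being well above background in T-LM and 0 of 8 arrays in KPT. It was at least 3.23-fold lower in K-LM than in T-LM (-1.86 ± 0.44, adjusted p = 0.00553), a call lost without K-LM replicate 1 or 2 or T-LM replicate 1 or 2 (adjusted p from 0.0121 to 0.0265). The order of Abca1 at P6 was thus T-LM above both others, with K-LM and KPT overlapping (difference 0.89 ± 0.38, adjusted p = 0.0888).
Abcg1 differed by 0.95 ± 0.22 between T-LM and KPT (limma adjusted p = 0.00448), with overlapping samples, and was lost without KPT replicate 1, 2 or 4 or T-LM replicate 1 or 3 (adjusted p from 0.01 to 0.0227). It was also lost in 6 of 11 other settings (adjusted p up to 0.787), among them the deposited values (0.52 ± 0.14), normexp (0.57 ± 0.17) and signals raised to the lowest passing one (0.40 ± 0.24), and 1 of the 5 first arrays of KPT P6 was well above background. Between K-LM and KPT it differed by 1.87 ± 0.25 (adjusted p = 4.14e-05), without overlap. On the late slide alone that difference was 1.88 ± 0.21 (adjusted p = 0.000644). Between K-LM and T-LM it was 0.93 ± 0.30 (adjusted p = 0.0334), short of the threshold though the groups were apart.

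Markers of other cell types moved with the T-LM P6 differences. There 6 to 9 of 9 macrophage, 4 to 5 of 5 fibroblast and 2 to 4 of 5 lung epithelium markers were well above background, against 4 to 7, 3 to 4 and 1 on the first arrays of KPT P6. The summed lung epithelium level was -2.85 to -0.47 in T-LM P6, -3.89 to -3.27 in K-LM P6 and -4.91 to -4.52 in KPT P6, and the fibroblast sum was 1.02 to 2.79, -0.06 to 1.59 and -1.23 to 0.14. The summed macrophage level ran the other way, at 1.60 to 1.77 in T-LM P6 and 1.82 to 2.28 in KPT P6. Their part in the Abca1 and Abcg1 differences was not tested.

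Among the enzymes at P6, Hmgcs1 differed between K-LM and KPT by -0.77 ± 0.18 (limma adjusted p = 0.00374), Idi1 by -1.03 ± 0.22 (adjusted p = 0.00251) and Insig1 by -1.03 ± 0.25 (adjusted p = 0.00574), each without overlap. On the late slide alone the differences were -0.78, -1.07 and -1.03 (adjusted p = 0.00997, 0.00447 and 0.0104). Leaving out 1 sample ended Hmgcs1 (K-LM replicate 1 or 3, KPT replicate 4), Idi1 (K-LM replicate 2 or 3, KPT replicate 4) and Insig1 (any K-LM replicate), with adjusted p from 0.0103 to 0.0331. With all routes in 1 model, 1 of the 24 P6 differences passed, that of Abca1 between T-LM and KPT. Sqle and Lss did not pass in any pair of routes, and Sqle, alone among the enzymes, lay higher in K-LM P6 (0.90, 0.74 and 0.62) than in T-LM P6 without overlap (difference 0.39 ± 0.18, adjusted p = 0.138).
Of 15 further synthesis genes, 3 were lower in K-LM than in KPT, Cyp51 (-1.04 ± 0.21, limma adjusted p = 0.00143) and Msmo1 (-0.81 ± 0.19, adjusted p = 0.00392) among them. Npc1 and Soat1, of the uptake and trafficking list, were higher (0.75 ± 0.18 and 0.71 ± 0.18, adjusted p = 0.00514 and 0.00642). Elovl6, a fatty acid elongase, was higher in T-LM than in KPT (2.75 ± 0.35, adjusted p = 1.82e-05), while Dhcr7 and Ebp were lower (-0.66 ± 0.14 and -0.59 ± 0.14, adjusted p = 0.00278 and 0.00431). Against T-LM, Acss2, Soat1 and Ebp were higher in K-LM (1.13 ± 0.21, 0.97 ± 0.21 and 0.73 ± 0.19, adjusted p = 0.00109, 0.00283 and 0.00859) and Elovl6 lower (-2.19 ± 0.48, adjusted p = 0.0033). Of 2 further efflux genes tested at P6, 1 was higher in T-LM than in KPT, and 1 was lower in K-LM than in T-LM. The shares of all probes lower in T-LM than in KPT and higher in K-LM than in T-LM were not taken.

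Across the 65 RNA samples the levels of the enzymes and Insig1 were correlated with each other, and those of the exporters with few of them. Of 28 pairs of members, 16 had an adjusted p of 0.01 or less by permutation, with both Pearson's r and Spearman's rho. Of the 10 enzyme pairs 9 passed (r from 0.30 to 0.74), the exception being Idi1 with Sqle (r = 0.30, rho = 0.25, permutation adjusted p = 0.0215 and 0.0616). All 5 enzymes passed with Insig1 (r from 0.46 to 0.82), most closely Fdft1 (r = 0.82, rho = 0.83, adjusted p = 2.55e-05, the permutation p being 1e-05, the smallest that 100000 resamples can give). Abca1 passed with 0 of these 6 genes (r from -0.11 to 0.30), and Abcg1 only with Idi1 (r = -0.58, rho = -0.61, permutation adjusted p = 4.67e-05 and 2.55e-05). Abca1 and Abcg1 went together weakly (r = 0.37, rho = 0.38, permutation adjusted p = 0.00357 and 0.00345).
Without the 2 samples farthest from the median of the first gene, r was 0.81 for Fdft1 with Insig1, -0.53 for Idi1 with Abcg1 and 0.37 for the exporters. On the 62 arrays of the other slides alone r was 0.81, -0.55 and 0.45, and 17 pairs passed. Taken as deviations from the group means, r was 0.75, -0.54 and 0.29. The samples share a line, routes and scaling, and Abca1 and Abcg1 were often not well above background, so their r values also carry the floor of each array.

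**Figure D5:**
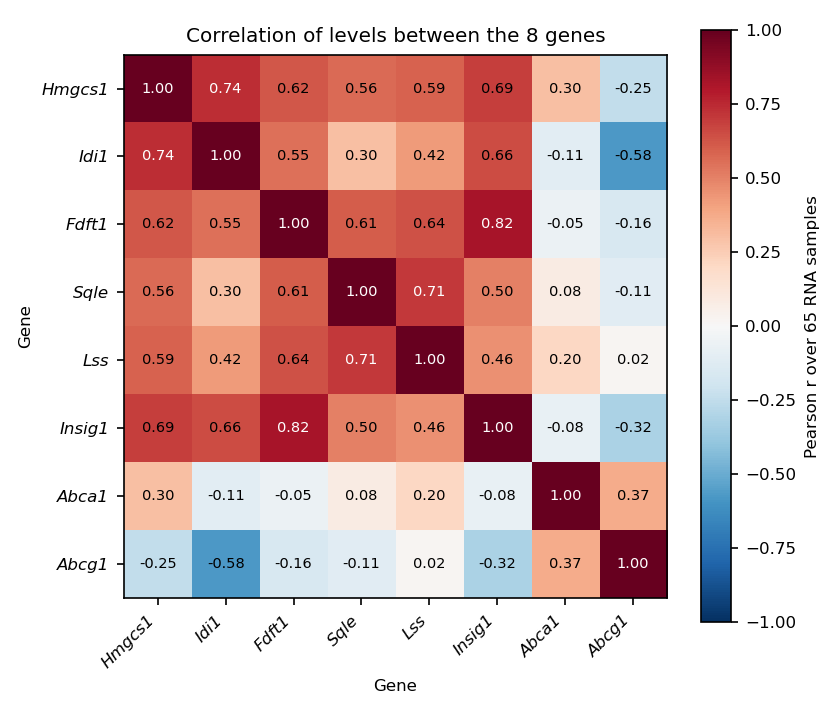
Pearson's r between the levels of the 8 genes (both axes) over 65 RNA samples, with repeat arrays averaged; color runs from -1 to 1. The block of enzymes and Insig1 lies between 0.30 and 0.82, and the rows of Abca1 and Abcg1 are pale but for Idi1 with Abcg1 at -0.58.

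Genes whose pattern was most like these were sought among 9950 genes well above background on at least 35 arrays, as a description over the same 65 samples. The mean of the 5 enzymes was most like Cyp51 and Fdps (r = 0.87 each), then Scd2 (0.79) and Rdh11 (0.76) among its 5 nearest. Insig1 was most like Mvd (0.86), Rdh11 (0.83), Fdps (0.82), Nos3 (0.73) and Pcyt2 (0.70). Abca1 was most like Gdpd5 (0.74), Tgfb2 (0.73), Adarb1 (0.72), Zmat3 and Wdr92 (0.70 each). Abcg1 was most like H2-DMa (0.79), Anpep (0.78), Kdm5b, Mpeg1 and Adam8 (0.77 each), of which Mpeg1 is a gene of macrophages and H2-DMa one of antigen presentation.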

How the data were processed

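RNA of GFP-RENCA cells was labelled with Cy5 and read on Agilent one-color mouse arrays. The authors deposited scanner files from Feature Extraction, whose processed signal intensity is background-subtracted, and a table of log2 values, which the authors had quantile normalized from the median signal, as a match to the scanner files showed (largest difference 0.105). The 55681 probes other than controls were named through RefSeq accessions (GRCm38.p6), and 28376 had 1 symbol. Of the spots, 15176 flagged as outliers by the scanner software were left out, which left 1567 probe values missing, and 0 spots were saturated.

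The level used is the log2 processed signal after subtracting each array's own 75th percentile, over the 11289 probes well above background on all 70 arrays. Arrays give no counts, so their number limits the precision. Groups came from the labels. Changes came from limma 3.58.1 in R 4.3.3 (functions lmFit and eBayes), over every probe that passed background on 2 or more of the arrays fitted, 1 fit per route with P0 for P0 to P6 and P3 to P6, and P1 added for P0 to P1 and P1 to P6. The K-LM, P6 and all-route fits held a late-slide term, with arrays of 1 RNA sample as a random block (correlations 0.68, 0.39 and 0.70 over 4000 probes). A change was called where its p, adjusted by Benjamini-Hochberg over all probes, was at most 0.01. On simulated data 51% to 90.5% of log2 changes of 2 were recovered, with 0 to 6 false calls per comparison.

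The alternatives were other scalings, filters, slide terms, covariates and left-out samples. Normexp (offset 50) was run on the median signal, since no mean signal was used here. Correlations used 100000 permutations, over RNA samples with repeats averaged. From the gene lists, the 3 largest called rises and falls of each comparison were taken, all lists together, beside every member. Some of these list genes are not reported by name here, and not every list was counted in every comparison. The share of all probes called was taken only in the directions in which a member was called, or in both where none was. The members and lists were chosen with earlier results of these data known.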

Additional observations from a re-analysis of the deposited data

Results flagged for a closer look

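Each of the 8 genes was read in each group of 4 to 6 samples, 72 sets of values in all, and 5 had a sample far from the others by Dixon's test, where chance gives about 1 set in 20. Hmgcs1 in T-LM P5 read 0.0833 in replicate 1, the highest of 6, with the others between -1.72 and -1.21. Sqle in T-LM P6 read -0.16 in replicate 2, the lowest of 4, with the others between 0.25 and 0.30. Lss in K-LM P3 read -3.87 in replicate 3, the highest of 5, with the others between -4.48 and -4.33. Abca1 in KPT P5 read -4.47 in replicate 1, the highest of 5, with the others between -6.84 and -6.33. Replicate 1 of KPT P5 had 9 of 9 macrophage markers well above background, but so did replicate 2, where Abca1 read -6.40. Abca1 in T-LM P1 read -3.50 in the sample titled LOT1, which has no replicate number, the highest of 5, with the others between -5.87 and -5.26. The P1 to P6 change of Abca1 differed between T-LM and KPT by 3.21 on the log2 scale, by a test of the difference itself. Without the LOT1 sample that difference was 3.62.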

How the results depend on the processing

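Of 30 called changes, 8 stayed past the threshold under every setting that gave a value, 14 under every leave-one-out and 7 under both, and 0 of 623 recomputed changes reversed; the causes of lost calls were not tested unless a setting's own construction shows them. From P0 to P6, 7 of 24 changes passed (4 to 7 with 1 sample left out), 2 among probes well above background on every array, which drops the exporters and Insig1, and 4 with slide as a fixed block. From P3 to P6, 1 of 24 passed (0 to 2 with 1 left out), and 0 with quantile normalization, every-array detection, the RNA index or slide as a fixed block. From P0 to P1, 2 of 16 passed (0 to 3), and 1 with no filter on dim probes. From P1 to P6, 1 of 16 passed (1 in each leave-one-out), 2 scaled over all probes, 0 with every-array detection, and 3 with all routes in 1 model or slide as a fixed block. At P5, 11 of 24 differences passed (7 to 13), 6 with no filter and 2 with the RNA index. At P6, 7 of 24 passed (4 to 7), 4 with no filter, 3 with every-array detection, and 1 with 1 model or slide as a fixed block. Of 32 differences between routes in the change, 1 passed (1 in each leave-one-out), and 0 with raised dim signals, every-array detection or slide as a fixed block. The 16 correlated pairs became 15 to 18 under 5 scalings, an alternative chosen after seeing the data. Scaling over all probes shifted the median change of all probes by -0.41 to 0.20, quantile normalization by -0.24 to 0.17, the deposited values by -0.23 to 0.16 and normexp by -0.16 to 0.11.

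Samples with the same replicate number did not deviate together as a rule (45 pairs of samples, r from -0.51 to 0.68, median 0.00, 0 of 15 pairs of groups with every r over 0.1). Pairs of groups that share only 2 numbers could not enter that last count. These r values rest on few samples and do not exclude pairing. The main fits took the samples as unpaired. With the replicate number as a block, 6 of 24 changes passed from P0 to P6, 0 of 24 from P3 to P6, 2 of 16 from P0 to P1, 1 of 16 from P1 to P6, 7 of 24 at P5, 2 of 24 at P6 and 1 of 32 between routes. From P0 to P1 these were not the same calls, as Idi1 in KPT was lost and Abcg1 in T-LM gained.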

Other observations

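At P4, which entered no comparison, Abca1 read -6.17, -5.35 and -6.28 in the KPT samples. The T-LM samples read -6.12, -5.60, -5.87 and -5.99, and the K-LM samples -4.38, -5.78 and -5.86. At P3 the KPT samples read -8.06 and -8.24, the T-LM samples -8.04, -5.83 and -8.33, and the K-LM samples between -8.49 and -7.85. All P4 samples of KPT and K-LM lay above all P3 samples of the same route, and 9 of the 10 P4 samples were well above background against 1 of the 10 P3 samples. The index of long over ribosomal protein mRNAs moved with it, from a mean of -8.19 at P3 to -6.25 at P4 in KPT and from -8.14 to -6.34 in K-LM. Markers of other cell types moved as well. The mean summed fibroblast level went from -2.23 to -0.19 in KPT, -2.22 to 2.03 in T-LM and -1.70 to 2.10 in K-LM. The macrophage markers well above background went from 4 of 9 to 8 or 9 of 9 in T-LM. The mean summed macrophage level ran the other way, from 2.09 to 1.78 in T-LM, 1.99 to 1.64 in K-LM and 1.91 to 1.87 in KPT. The part of the index and of these markers was not tested.

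Within KPT P4, replicate 3 read lowest for Hmgcs1 (-2.08), Idi1 (-2.78), Sqle (-0.22), Lss (-4.59) and Insig1 (-6.98), and highest for both exporters (Abca1 -5.35, Abcg1 -5.46). Fdft1 was lowest in replicate 1 (-3.34, against -3.21 in replicate 3). The summed macrophage level was 2.48 in replicate 3 and 1.56 in each of the others. By count, 9, 9 and 4 of 9 macrophage markers were well above background in replicates 1, 3 and 5. The summed fibroblast level was 1.65, 0.24 and -2.45 in the same order. The part of these markers was not tested.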
